A study of Mus musculus with 5 samples.

Results

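DNase I cuts DNA where chromatin is open, and sequencing of the cut ends gives DNaseI hypersensitive sites (DHSs). Here the sites at 10 genes of the Wnt pathway were followed through blood cell development in culture. The genes were the ligands Wnt3, Wnt3a and Wnt5a, the agonist Rspo3, the TCF/LEF factors Lef1, Tcf7, Tcf7l1 and Tcf7l2, and the target genes Axin2 and Sp5. They were found by their RefSeq symbols among 21000 protein-coding genes. A site was taken for a gene when it came within 1 kb of any of its transcription start sites (TSSs), which is called a promoter site below. Any other site was taken when the gene had the nearest protein-coding TSS and the site lay inside the gene or up to 100 kb from that TSS. This gave 144 of the 135173 sites in the 5 lists.

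The cells were mouse ES cells of strain 129 with a GFP reporter of Brachyury (Bry), differentiated in vitro and sorted. Mesoderm (MES) was Bry:GFP+ Flk1-, and hemangioblast cells (HB) were Bry:GFP+ Flk1+. Hemogenic endothelium (HE) was Tie2+ cKit+ CD41-, hematopoietic progenitors (HP) were CD41+, and macrophages (MAC) were CD11b+. All 5 populations thus came from a reporter line in culture and not from an embryo. There was 1 list of sites per stage, so n = 1 and no replicate error or test between stages can be given. The MAC label names 2 replicates for its 1 list. The lists held between 17734 (HP) and 37456 (MAC) sites, with median widths from 600 bp (MAC) to 1200 bp (HE), and carried no score or read count, so they do not give the depth behind a site, and read totals were not used here. A stage without a site is a stage in which no site was listed, which does not show closed chromatin. Of the genes for the sorted proteins, Itgam (CD11b) had a promoter site in MAC alone, Itga2b (CD41) in HE and HP, Tek (Tie2) in HE alone, Kit in MES to HP, and T (Brachyury) in MES and HB. Kdr (Flk1) had one at all 5 stages and so did not mark HB.

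Wnt ligands are secreted lipid-modified proteins that bind Frizzled and LRP receptors. In the canonical branch this stops the breakdown of β-catenin, which enters the nucleus and binds TCF/LEF factors on DNA, turning them from repression to activation of their targets. The pathway is needed to form mesoderm at the primitive streak, and Wnt3 is the ligand on which this step depends in the mouse embryo. R-spondins such as Rspo3 strengthen the signal by removing the ligases Znrf3 and Rnf43 that clear Frizzled from the membrane.

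TCF/LEF factors recognise a short motif, searched here as CTTTGAA or CTTTGAT on both strands (TTCAAAG or ATCAAAG on the other strand). To print the DNA behind the values below, 200 bases around a match are given for 1 region at each gene, that with the most matches. Ties, as at Wnt3, Lef1, Tcf7 and Tcf7l2, went to the region listed in most stages and then to the nearest to the TSS, and stretches with over 30 bases of UTR were passed over. Rspo3 had no match. All are from the plus strand of GRCm38 (mm10), 5′ to 3′, with the match in capitals.
Wnt3 chr11:103763934-103764133: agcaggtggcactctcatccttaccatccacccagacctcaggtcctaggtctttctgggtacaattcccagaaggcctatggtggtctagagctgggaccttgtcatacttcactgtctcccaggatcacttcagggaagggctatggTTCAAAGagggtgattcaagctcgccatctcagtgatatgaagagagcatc
Wnt3a chr11:59260964-59261163: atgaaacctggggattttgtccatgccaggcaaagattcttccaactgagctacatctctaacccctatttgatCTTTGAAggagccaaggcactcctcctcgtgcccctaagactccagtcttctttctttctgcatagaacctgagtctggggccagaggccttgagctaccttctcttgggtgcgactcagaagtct
Wnt5a chr14:28418510-28418709: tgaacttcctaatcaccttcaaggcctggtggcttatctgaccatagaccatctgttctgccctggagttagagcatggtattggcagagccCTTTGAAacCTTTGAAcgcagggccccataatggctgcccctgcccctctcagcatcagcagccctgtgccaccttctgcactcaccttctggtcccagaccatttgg
Lef1 chr3:131085033-131085232: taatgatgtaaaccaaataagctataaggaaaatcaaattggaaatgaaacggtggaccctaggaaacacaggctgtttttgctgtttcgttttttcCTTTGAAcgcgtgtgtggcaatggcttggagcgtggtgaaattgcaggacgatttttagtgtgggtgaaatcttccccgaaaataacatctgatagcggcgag
Tcf7 chr11:52284362-52284561: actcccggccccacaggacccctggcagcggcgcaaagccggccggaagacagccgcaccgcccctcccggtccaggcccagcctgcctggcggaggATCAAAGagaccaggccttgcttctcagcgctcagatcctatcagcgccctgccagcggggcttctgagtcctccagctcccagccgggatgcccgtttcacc
Tcf7l1 chr6:72740469-72740668: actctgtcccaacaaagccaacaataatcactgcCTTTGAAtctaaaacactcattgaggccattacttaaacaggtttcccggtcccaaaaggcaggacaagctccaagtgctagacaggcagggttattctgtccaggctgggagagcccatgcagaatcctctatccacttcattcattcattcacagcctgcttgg
Tcf7l2 chr19:55732581-55732780: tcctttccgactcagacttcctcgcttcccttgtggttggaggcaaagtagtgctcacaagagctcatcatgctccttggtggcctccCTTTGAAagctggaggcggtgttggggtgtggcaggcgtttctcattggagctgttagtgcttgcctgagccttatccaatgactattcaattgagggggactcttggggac
Axin2 chr11:108961734-108961933: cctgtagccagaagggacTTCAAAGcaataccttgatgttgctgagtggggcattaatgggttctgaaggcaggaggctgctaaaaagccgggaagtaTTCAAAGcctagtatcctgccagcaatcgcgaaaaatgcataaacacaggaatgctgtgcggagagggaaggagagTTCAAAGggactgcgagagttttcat
Sp5 chr2:70472094-70472293: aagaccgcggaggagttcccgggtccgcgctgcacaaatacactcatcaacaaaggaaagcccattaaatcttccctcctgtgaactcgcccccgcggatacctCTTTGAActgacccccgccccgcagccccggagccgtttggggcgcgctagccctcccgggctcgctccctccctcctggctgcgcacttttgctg
The Axin2 stretch, from a site listed in MES alone, carried 3 matches, which the text returns to below. In the Wnt5a stretch, from a site listed in HB alone, 2 matches stood side by side in the same orientation. The other 7 stretches held 1 match each. None of these stretches holds the longer form CCTTTGAT, the strict match.

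The Sp5 region with the most matches was its promoter, part of which is UTR. The 250 bases upstream of the TSS are therefore shown from the RefSeq promoter table (GRCm38.p6), on the plus strand. They hold 1 match, which is the strict form when the base before it is read.
Sp5 promoter chr2:70474673-70474922: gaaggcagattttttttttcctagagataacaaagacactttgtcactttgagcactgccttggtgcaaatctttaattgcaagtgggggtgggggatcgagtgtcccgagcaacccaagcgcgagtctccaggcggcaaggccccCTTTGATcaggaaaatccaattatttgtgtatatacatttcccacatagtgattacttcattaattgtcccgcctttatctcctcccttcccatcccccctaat
Of the 10 genes, 8 had an entry in that table, with 13 entries of 300 bases in all, and this Sp5 entry was the single one with a match. Over all 32851 promoters of the table, 8.65% held a match. The table gave no entry for Wnt5a and Rspo3.

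Sites at the 10 genes were more numerous in the early lists than in the late ones. The genes together had 37, 40, 31, 12 and 24 sites from MES to MAC. Per 1000 sites of each list these were 1.69, 1.62, 0.931, 0.677 and 0.641. Of the 24 MAC sites, 16 were at Tcf7l2, and without this gene the numbers were 34, 35, 26, 10 and 8. Tcf7l2 was the only gene of the 10 with more sites in MAC than at any earlier stage. In MES, 9 of the 10 genes had a site of some kind, and 5 of those 9 had none in MAC (Wnt3, Wnt3a, Rspo3, Tcf7 and Sp5). Of all 13791 genes with a site in MES, 12.7% had none in MAC.

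**Figure D1:**
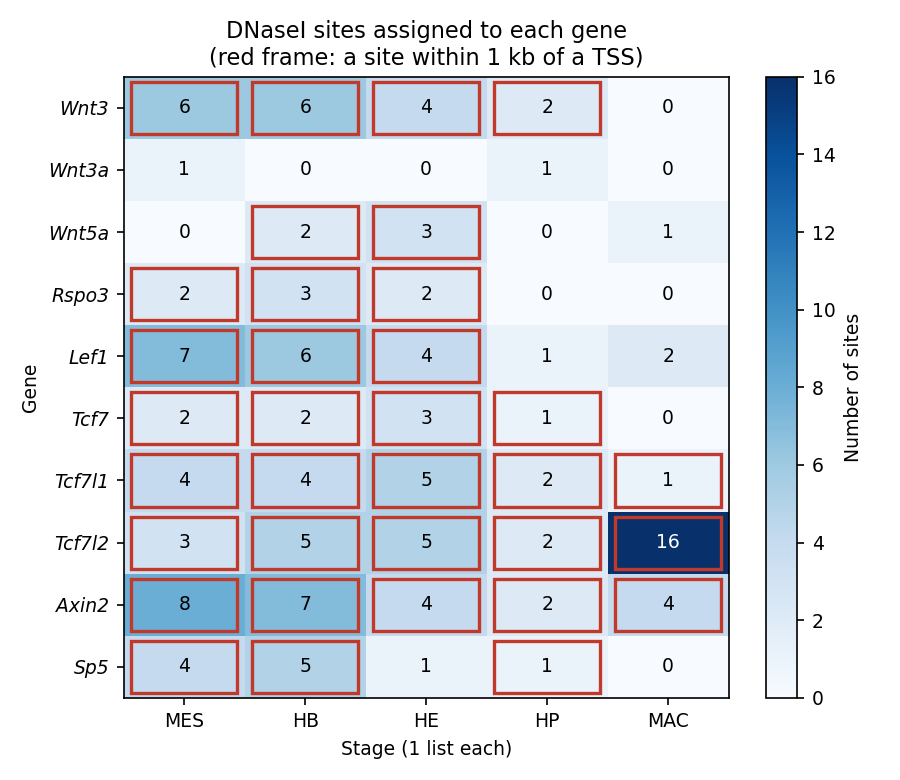
Number of DNaseI sites assigned to each of the 10 genes (rows) in each stage (columns, 1 list each), with colour and digit giving the number and a red frame marking a site within 1 kb of a TSS. Wnt3, Rspo3, Lef1, Axin2 and Sp5 have their highest numbers in MES or HB, up to 8 for Axin2, while Wnt5a, Tcf7 and Tcf7l1 have theirs in HE and Tcf7l2 has 16 in MAC.

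Promoter sites of the 10 genes were fewest in MAC. A promoter site was listed for 8 of the 10 genes in MES (57.2% of all 21000 genes), 9 in HB (58.9% of all) and 8 in HE (61.7% of all). In HP 6 genes had one (50.1% of all), and in MAC 3 genes did (50.2% of all). The genes that kept one in MAC were Tcf7l1, Tcf7l2 and Axin2, which had a promoter site at every stage, as did 43.4% of all genes. In MAC these 3 sites were 300, 500 and 200 bp wide, below the median of 800 bp over all promoter sites of that list. When each list was shortened to as many of its widest sites as the HP list holds, none of the 10 genes had a promoter site in MAC, against 39.8% of all genes, and 5 of the 10 had one in HE, against 53.2%. The share above that of all genes in HE was thus lost at equal list lengths.

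**Figure D2:**
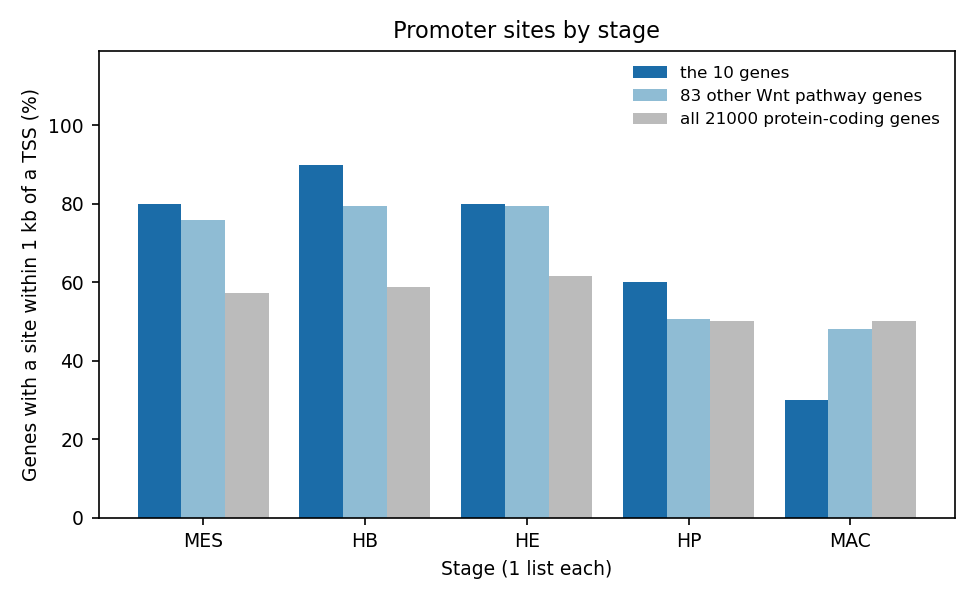
Percent of genes with a DNaseI site within 1 kb of a TSS in each stage (1 list each, no error bars) for the 10 genes, 83 other Wnt pathway genes and all 21000 protein-coding genes. With all sites, the 10 genes stand above all genes in MES to HP and below them in MAC (3 of 10), but with the widest sites at equal list lengths HE falls to 5 of 10 against 53.2% of all genes, and with sites no narrower than the median of their list HE is at 5 against 53.5% and HP at 2 against 38.9%.

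Wnt3 (chr11:103774175-103818021, plus strand) had 18 sites, which were 6, 6, 4 and 2 from MES to HP, and none in MAC. The 6 sites of MES were matched or exceeded by 0.948% of all genes. Distances are given from the TSS to the middle of a site, negative upstream. Its promoter held a site in MES to HP, a pattern shared by 3.9% of genes. This site was broadest in HB (2000 bp) and HE (1700 bp), against 600 bp in MES and 500 bp in HP. Inside the gene the sites belonged to the early stages. A MES site of 1400 bp at 34.9 kb and a HB site of 1200 bp at 34.7 kb made up 1 region, and sites of 600 and 1100 bp at 40.8 and 40.9 kb another. The site at 21.4 kb was in MES alone and that at 30.7 kb in HB alone. The region outside the promoter with a site in most stages was at 66.9 kb (chr11:103840817-103841406), in an intron of Nsf, with sites of 700, 900 and 1000 bp in MES, HB and HE. A second region in Nsf, at 78.7 kb, had a site of 1500 bp in HE and 800 bp in HP. The region at −10.3 kb, with sites in HB and HE, lay in an intron of Wnt9b. When sites were given to the nearest gene body in place of the nearest TSS, Wnt3 had 10 sites.

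Wnt3a (chr11:59248036-59290751, minus strand), a ligand of the later primitive streak and tail bud, had 2 sites. A MES site of 200 bp lay at −3.1 kb, and an HP site of 700 bp lay at 29.5 kb in an intron of Wnt3a. No promoter site was listed at any stage, as for 32.4% of all genes. The 250 bases before its TSS were 87.6% G and C, the highest of the promoter entries of these genes. Whether base composition bears on the missing site was not tested.

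Wnt5a (chr14:28504543-28527448, plus strand), best known for signalling without β-catenin, had its sites in the middle of the series. None was listed in MES, 2 in HB, 3 in HE, none in HP and 1 in MAC. Its promoters held sites in HB and HE, a pattern shared by 1.37% of all genes. The HB promoter site was 1500 bp wide at 0.7 kb, and the HE sites were 600, 1100 and 700 bp wide at −0.1, 1.1 and 5.1 kb, near different annotated TSSs. The −0.1 kb and 1.1 kb sites of HE both overlapped the HB site. A HB site of 700 bp at −86.8 kb and a MAC site of 200 bp at −77.6 kb lay in introns of Erc2.

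Rspo3 (chr10:29453106-29535867, minus strand) had 2 sites in MES, 3 in HB, 2 in HE and none in HP or MAC. Its promoter region (chr10:29535463-29536210) had sites in MES, HB and HE that were 300, 300 and 500 bp wide. Of all genes, 3.96% had promoter sites in exactly these 3 stages. A region at −18.7 kb had a site of 300 bp in MES and one of 700 bp in HB. HB alone had a site of 400 bp at −34.1 kb, and HE alone had one of 1900 bp at 2 kb inside the gene. The promoter sites of Rspo3 were narrow, and none was as wide as the median of its list.

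Lef1 (chr3:131110297-131224357, plus strand), the TCF/LEF factor most often described as an activator, had 20 sites. From MES to MAC these were 7, 6, 4, 1 and 2. The 7 MES sites were matched or exceeded by 0.443% of all genes. Promoter sites were listed in MES, HB and HE, as for Rspo3. In MES and HB they covered the first TSS (900 and 1000 bp, at −0.2 and −0.3 kb) and a stretch at 2.2 kb near a further TSS (200 and 600 bp). In HE a site of 1900 bp was centred between them at 1.4 kb. The HP site lay at −25.1 kb in a region that was listed in MES, HB, HE and HP (chr3:131084836-131085594), with widths of 800, 600, 1400 and 1000 bp. This intergenic region, whose TCF/LEF match is printed above, outlasted the promoter site in these lists. An intergenic region at −3.9 kb had sites of 500, 900 and 1300 bp in MES, HB and HE. A region at 8.1 kb had sites of 1200 bp in MES and HB, the widest Lef1 sites of these stages. The MAC sites, 300 bp at −53.1 kb and 200 bp at 37.2 kb, were at positions where no earlier stage had a site.

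Tcf7 (chr11:52246527-52283383, minus strand), known from T cells, had 2, 2, 3 and 1 sites from MES to HP and none in MAC. Promoter sites were listed from MES to HP, and their middle differed from stage to stage. The MES site was 300 bp wide at 0.4 kb, and the HB sites were 1000 bp at 0 kb and 500 bp at −1.3 kb. The HE site was 1500 bp at −0.8 kb and the HP site 400 bp at −0.4 kb. The HE site of 800 bp at 14.3 kb and that of 600 bp at −35.8 kb had no counterpart at another stage. A MES site of 600 bp lay at −3.6 kb. No region of Tcf7 outside the promoter was shared between stages.

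Tcf7l1 (chr6:72626371-72789045, minus strand), mostly a repressor and abundant in ES cells, had 4, 4, 5, 2 and 1 sites from MES to MAC. Its promoter region (chr6:72788598-72789849) had a site at all 5 stages. The widths from MES to MAC were 1900, 1900, 2000, 1000 and 300 bp. An intronic region at 40.7 kb (chr6:72747930-72748858) had a site at every stage but MAC, with widths of 400, 1700, 1600 and 700 bp. Further regions were at 48.3 kb in HB and HE, at −36.3 kb in MES and HE and at −45.1 kb in MES and HB. A site at 30.6 kb was listed in HE alone. MAC had no site outside the promoter. With the nearest gene body, or with all annotated TSSs, in place of the nearest curated TSS, Tcf7l1 had 26 sites instead of 16.

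Tcf7l2 (chr19:55741797-55933659, plus strand) had 3, 5, 5, 2 and 16 sites from MES to MAC. Only 39 of the 21000 genes (0.186%) had 16 or more sites in MAC. Its stretch of genome was also the longest of the 10, with 353.5 kb open to assignment. Over all stages it had 8.77 sites per 100 kb against 17.6 for Wnt3 and 12.5 for Axin2. In MAC alone its 16 sites on 353.5 kb stood beside 4 on 200 kb for Axin2 and 2 on 203.9 kb for Lef1, and Wnt3 had none. The promoter region (chr19:55741330-55742062) was listed at all 5 stages, with widths of 900, 1000, 1100, 800 and 500 bp. A second promoter inside the gene (chr19:55895331-55895839, at 153.8 kb) had a site in MES (300 bp) and HB (500 bp) alone. Of the 21 Tcf7l2 regions, 13 were listed in MAC alone, spread from −92.2 to 134.9 kb, and 25 genes in all had 13 or more such regions. As a share of a gene's regions this was less rare. Of 4509 genes with at least 5 regions, 12% had as large a share in MAC alone or a larger one. The widest MAC site, 900 bp, lay at −92.2 kb. The region at 124.2 kb (chr19:55865682-55866412) had sites of 1300, 400 and 600 bp in HE, HP and MAC, and a region at −98.2 kb one of 800 bp in HE and in MAC. The region at −41.1 kb was listed in MES, HB and HE (800, 1000 and 900 bp), and a MAC site of 600 bp at −40.6 kb overlapped it.

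Axin2 (chr11:108917828-108950783, plus strand), a scaffold of the complex that breaks down β-catenin and a feedback target of the pathway, had 25 sites, in the order of the stages 8, 7, 4, 2 and 4. The 8 MES sites were the most of any of the 10 genes before MAC, and 0.205% of all genes had as many or more in MES. The main promoter (chr11:108920017-108920956) had sites of 1400 and 1600 bp in MES and HB, and of 900 and 200 bp in HP and MAC. In HE a site of 2000 bp, centred at 1.1 kb, overlapped the same stretch and was merged apart from it because its middle lay further into the gene. HE also had a site of 900 bp at −2.7 kb near an upstream TSS. The region at 91.5 kb (chr11:109011607-109012166), intergenic and CpG-rich, was listed at all 5 stages, with widths of 1200, 1300, 1500, 1300 and 1200 bp. It was the only region outside a promoter among the 10 genes with a site at every stage. The regions at −22.5 kb and −9.4 kb were in MES and HB, and that at −13.5 kb was in MES, HB and HE. Sites at −10.5, 8.6 and 41.5 kb were in MES alone and that at 27.5 kb in HB alone. MAC had its own site of 700 bp at −73.7 kb, in an intron of Cep112, and shared a region at 5 kb with HB.

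Sp5 (chr2:70474923-70477726, plus strand), a zinc finger factor whose gene is a direct target of β-catenin and TCF/LEF, had 4, 5, 1 and 1 sites from MES to HP and none in MAC. The promoter region (chr2:70474620-70475290) had sites of 900, 1200 and 700 bp in MES, HB and HP. None was listed there in HE, and 0.295% of all genes had promoter sites in exactly MES, HB and HP. The HE site lay at −18.6 kb (500 bp), in a region also listed in MES (400 bp) and HB (800 bp). The regions at −30.9 kb (900 bp in both stages) and −2.9 kb (900 and 1100 bp) were in MES and HB. A site of 400 bp at −14.2 kb was in HB alone. All Sp5 sites lay at the promoter or upstream of it.

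**Figure D3:**
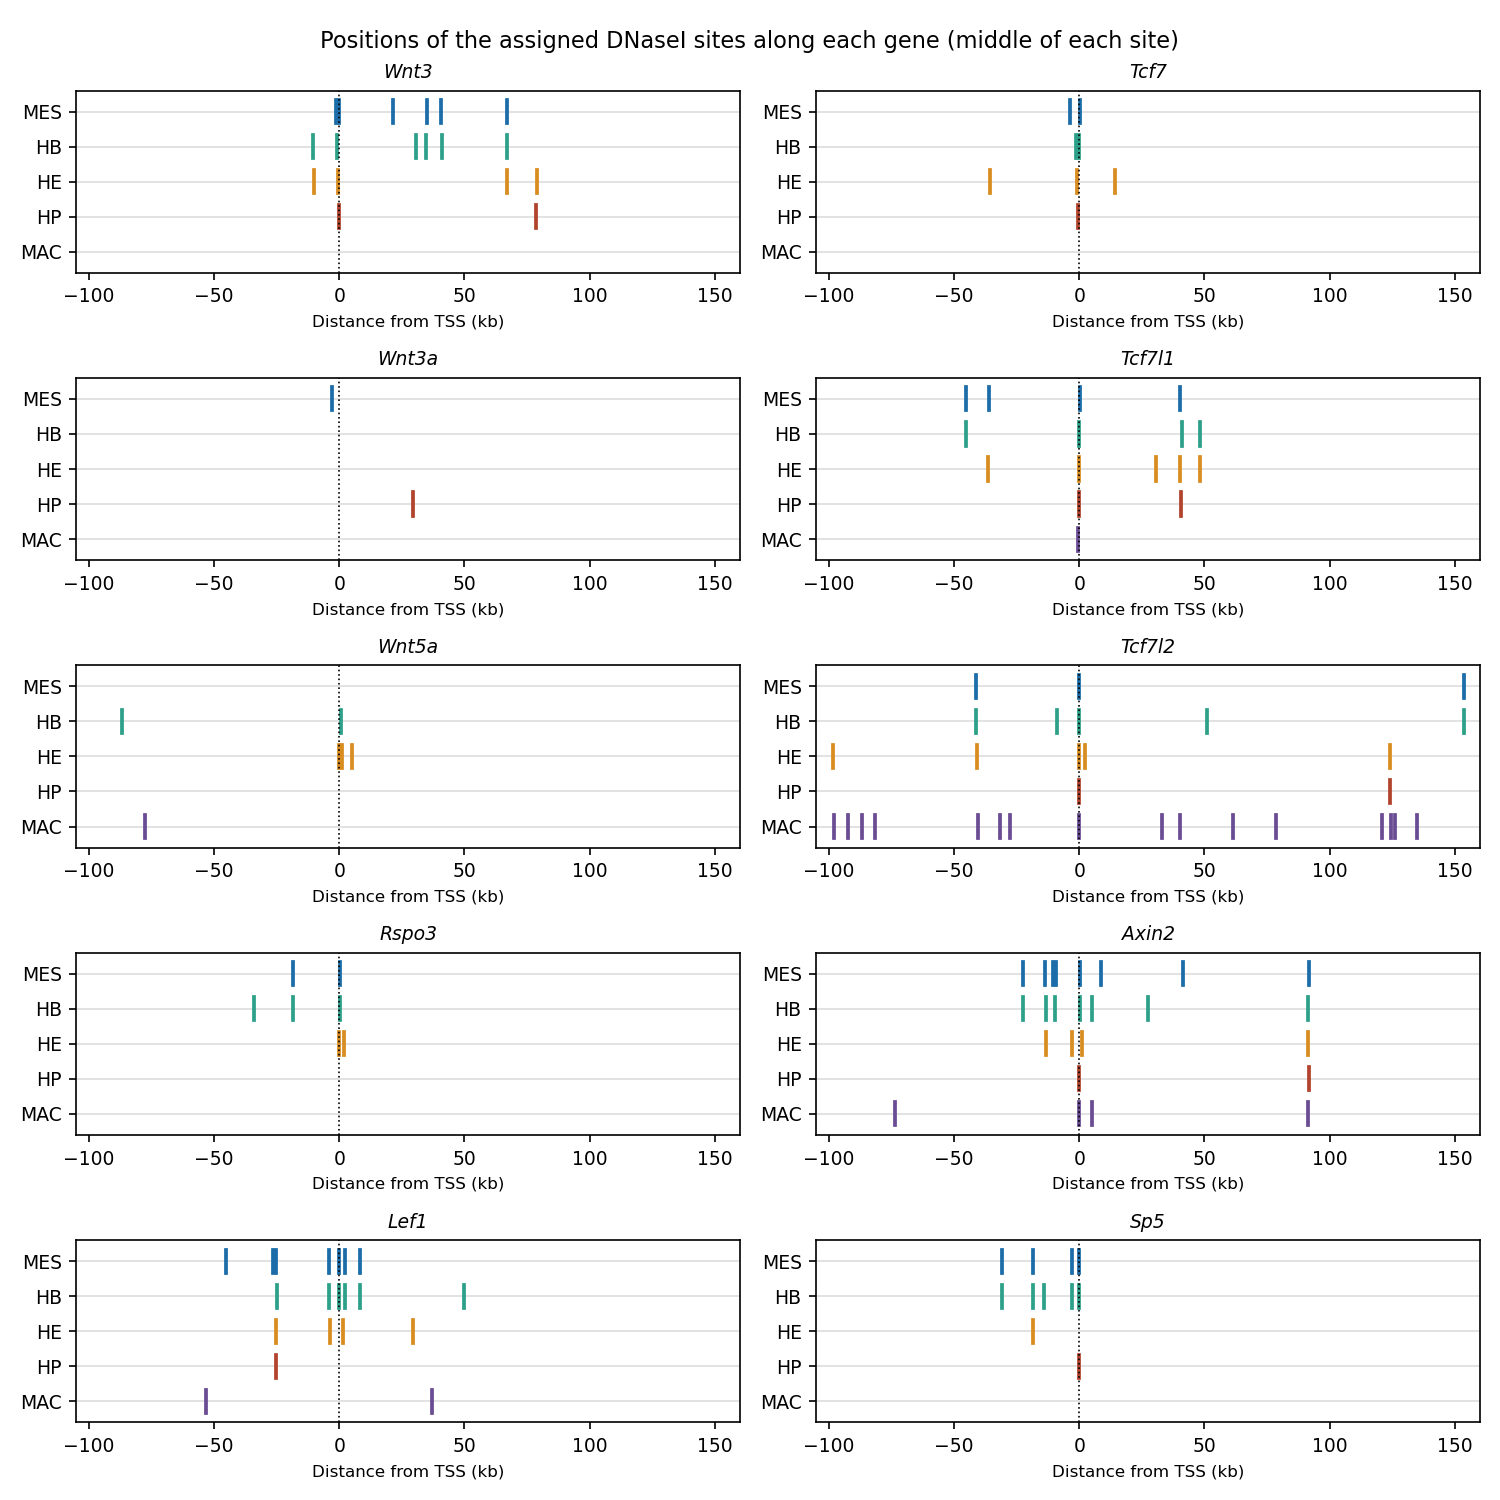
Middle of every assigned DNaseI site (vertical ticks) as its distance from the TSS in kb, negative upstream in the direction of the gene, with 1 row per stage and 1 panel per gene. The Axin2 site at 91.5 kb stands in all 5 rows, and 16 ticks fill the MAC row of Tcf7l2.

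Sites that overlap by at least 1 bp were followed from stage to stage. Of the 37 MES sites, 28 overlapped a HB site, against 82.9% of all MES sites. Of the 40 HB sites, 19 overlapped a HE site, against 69.4% of all. Of the 31 HE sites, 10 overlapped a HP site, against 45.5%, and of the 12 HP sites, 5 overlapped a MAC site, against 67.3%. From MES to HB the share for the 10 genes was near that of all sites. It was lower in the later transitions, with few sites in the last. The shares of all sites were not matched on promoter sites. Promoter sites were 12 of the 40 HB sites (12004 of all 24729). They were 11 of the 31 HE sites (12920 of all 33305) and 6 of the 12 HP sites (9919 of all 17734). Merged over stages as described below, the promoter regions of the 10 genes were listed in 1.91 stages on average (3.36 for all promoter regions). Their other regions were listed in 1.57, against 1.5 for all others. The merging can cut 1 promoter into several regions, so 1.91 is not the number of stages per promoter. Tcf7 had 5 promoter regions and Axin2 3, while as genes they had a promoter site in 4 and 5 stages. How far such cuts differ between the 10 genes and all genes was not tested. Looking back, 13 of the 40 HB sites overlapped no MES site (26.8% of all HB sites), and 12 of the 31 HE sites overlapped no HB site (48.7% of all). The same held for 2 of the 12 HP sites (14% of all) and 19 of the 24 MAC sites (67.9% of all), each against the stage before. Of these 19 MAC sites, 14 were at Tcf7l2, and without this gene 5 of 8 MAC sites (62.5%) overlapped no HP site, near the share of all sites.

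The sites were then merged into regions over the stages, using windows of 500 bp around the middle of each site. The 10 genes had 87 of the 68846 regions. Of these, 33 held sites in MES and/or HB only (37.9%, against 14.5% of all regions). Another 13 were in HE only, against 17.1% of all regions, 2 were in HP only (2.3%, against 2.26% of all), and 17 were in MAC only, against 31% of all regions. Only 3 regions were listed at all 5 stages (3.45%, against 13.2% of all regions). Without Tcf7l2, 30 of 66 regions were in MES and/or HB only and 4 of 66 in MAC only. Lef1 and Axin2 had 6 MES and/or HB regions each, and 82 genes, these included, had 6 or more. Wnt3 had 5, Tcf7 4, Tcf7l2 and Sp5 3 each, Wnt5a and Rspo3 2 each, and Wnt3a and Tcf7l1 1 each. The windows can split a broad site from a narrow one beside it. Of the 53 regions with a site in 1 stage, 12 overlapped a deposited site of another stage, 5 of them among the 13 HE regions and 1 among the 17 MAC regions.

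**Figure D4:**
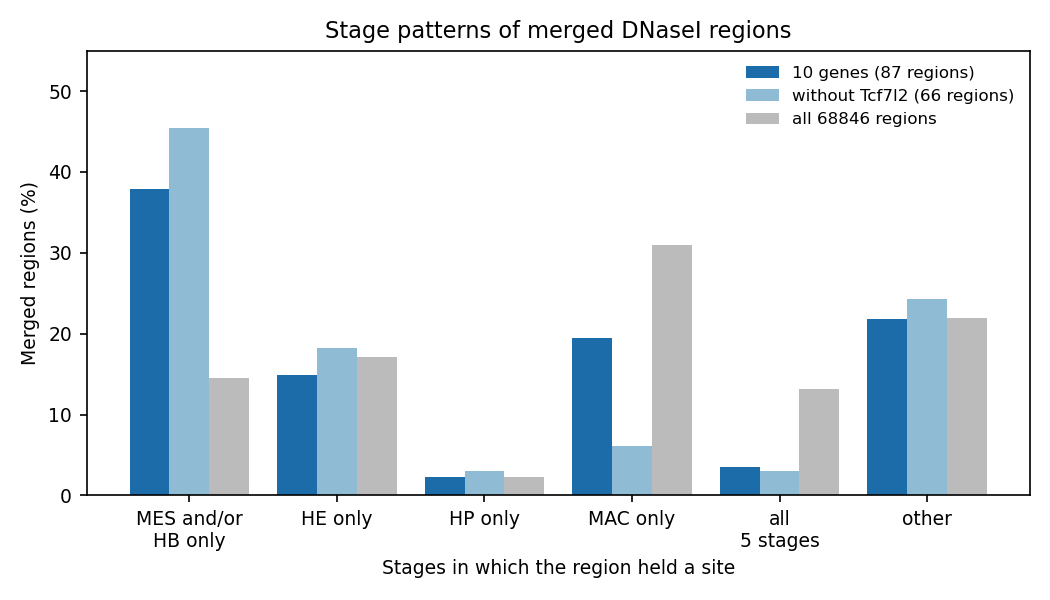
Percent of merged DNaseI regions by the stages in which they held a site, for the 87 regions of the 10 genes, the 66 regions left without Tcf7l2, and all 68846 regions (no error bars, 1 list per stage). Regions in MES and/or HB only make up 37.9% for the 10 genes against 14.5% overall.

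By annotation, 38 of the 87 regions had their middle in an intron, 38 were intergenic and 11 were exonic. The 22 promoter regions included 17 that were CpG-rich (G and C at least 0.5 of the bases and an observed to expected CpG ratio of at least 0.6), or 77.3% against 64.8% of all promoter regions. Of the other 65 regions, 3 were CpG-rich (4.62%, against 2.92% of all other regions), at Lef1 (−3.9 kb), Axin2 (91.5 kb) and Sp5 (−2.9 kb).

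A TCF/LEF match lay in the central 500 bp of 28 of the 87 regions (32.2%), against 15.9% of all 68842 regions outside the mitochondrial sequence. Among promoter regions 7 of 22 had a match, where 8.43% of all promoter regions did, and among the others 21 of 65, where 18.4% did. The 7 lay at Wnt5a, Tcf7, Tcf7l2, Axin2 and Sp5. They included neighbouring regions at Tcf7 (−0.4 and −1.3 kb) and at Axin2 (0.1 and 1.1 kb), so the 22 regions are not 22 separate promoters. The strict form CCTTTGAT was in 5 regions (5.75%, against 2.04%), at Wnt3, Tcf7, Tcf7l2, Axin2 and Sp5. In the central 200 bp, 15 of the 87 regions had a match (17.2%, against 6.75% of all regions). The letters say only that the sequence is present, and no binding was measured here.

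The target genes Sp5 and Axin2 had the highest shares of regions with a match among the 10. Of the 13 Axin2 regions, 7 had a match, with 11 matches in all. Of 4509 genes with at least 5 regions, 1.69% had as large a share or a larger one. Sp5 had 3 of 5 regions with a match (1.15% of these genes), Wnt5a 3 of 6 (2.88%) and Wnt3 4 of 10 (8.09%). Lef1, with 2 of 12, and Tcf7l1, with 1 of 6, were near the middle of these 4509 genes (50.1% for each). The Sp5 promoter region held 4 matches, and 8 of the 68842 regions (0.0116%) held 4 or more. The Axin2 region at 41.5 kb, the MES site printed above, held 3, as did 124 of all regions. By stage pattern, 14 of the 33 regions in MES and/or HB only had a match (22.9% of all such regions), 1 of the 13 in HE only (17% of all) and 4 of the 17 in MAC only (16.7% of all). Both regions in HP only had one (15.8% of all), as did 2 of the 3 listed at all 5 stages (7.24% of all) and 5 of the other 19 (14.8% of all). Counting every region with a site in a stage, 12 of 37 had a match in MES (12.7% of all), 18 of 40 in HB (14.7%), 6 of 31 in HE (13.7%), 7 of 12 in HP (10.6%) and 7 of 24 in MAC (14%), so matches were not limited to the early regions.

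The other motifs were searched the same way. The motif of GATA factors, AGATAA, was in 19 regions (21.8%, against 23% of all regions), SOX (AACAAAG or AACAATG) in 14 (16.1%, against 17.6%), and AP1 (TGAGTCA) in 12 (13.8%, against 17.9%). RUNX (TGTGGTT or TGTGGTC) was in 8 (9.2%, against 19.9%). TEAD (ACATTCCA, ACATTCCT, GCATTCCA or GCATTCCT) was in 9 (10.3%, against 10.7%) and PU.1 (GAGGAAGT) in 9 (10.3%, against 8.25%). T-box (AGGTGTGA) was in 4 (4.6%, against 2.26%), a ratio like that of TCF/LEF on far fewer regions. Read on the other strand, the SOX form AACAAAG is CTTTGTT and differs from the TCF/LEF letters at their sixth base, so no match was counted for both.

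**Figure D5:**
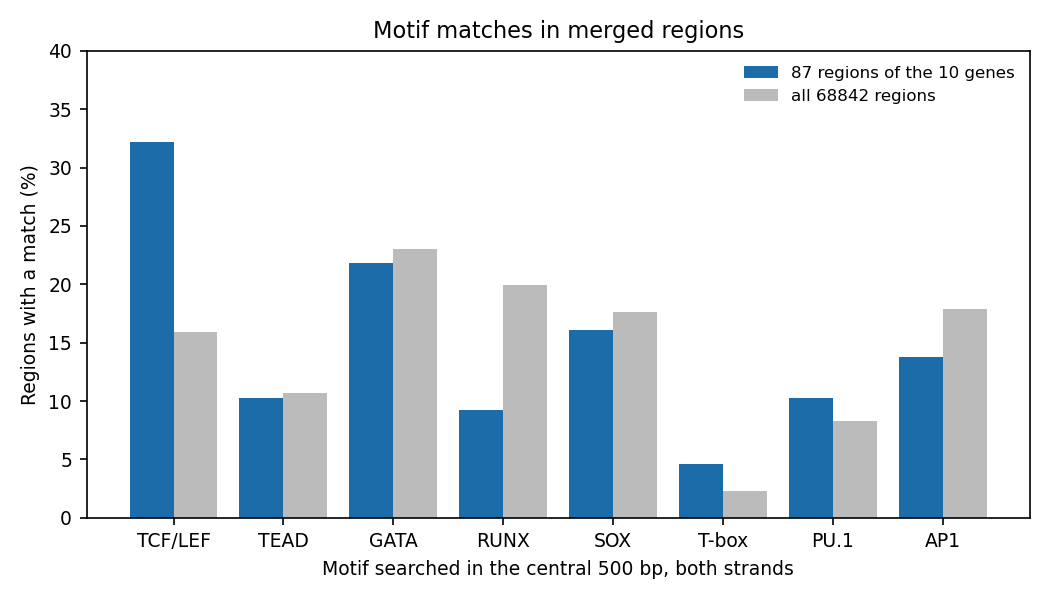
Percent of merged regions with at least 1 match to each motif in their central 500 bp on either strand, for the 87 regions of the 10 genes and for all 68842 regions. TCF/LEF stands at 32.2% against 15.9%, and RUNX at 9.2% against 19.9%.

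The rest of the pathway was taken from a list of 83 genes. From MES to MAC, promoter sites were listed for 63, 66, 66, 42 and 40 of them. These are 75.9%, 79.5%, 79.5%, 50.6% and 48.2% of the 83, so the group stood above the shares of all genes given earlier in MES to HE and near them in HP and MAC (50.1% and 50.2%). Of the 16 other ligand genes, 7, 9, 9, 1 and 2 had a promoter site from MES to MAC, which is 6.2% in HP and 12.5% in MAC. The only one with a site at all 5 stages was Wnt6. Wnt2 and Wnt4 had a promoter site in HE alone and Wnt2b in HB alone. Of the 6 genes for ligand release and agonists, 4 had one in MES and HB, 3 in HE and 1 in HP and MAC, where Wls, the carrier that takes Wnt proteins to the cell surface, was the one left.

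Of 18 receptor genes, 16, 16, 18, 13 and 11 had one from MES to MAC (72.2% in HP and 61.1% in MAC), and Fzd1, Fzd2, Fzd4 and Lgr4 were among the 9 with a site at all 5 stages. Ryk had one in HE alone. The 18 inhibitors at the membrane or outside the cell went from 14, 15 and 14 in MES, HB and HE to 7 in HP (38.9%) and 5 in MAC (27.8%). Znrf3, Rnf43, Kremen1 and Wif1 were among the 5 listed throughout. Of the 13 genes of the cytoplasmic relay, 11 were listed at all 5 stages (84.6%, against 43.4% of all genes), among them Ctnnb1, which encodes β-catenin, Apc, Axin1 and Gsk3b. Of the 12 nuclear partners, 9 were (75%), including Bcl9, Pygo2, Tle1 and Tle3, and Pygo1 had a site in HE alone. No test of these differences between roles was possible with 1 list per stage.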

How the data were processed

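DNaseI-seq was measured in 5 populations, 1 deposited list each. According to the methods, the authors used CutAdapt for trimming, Bowtie for alignment to mm10 (unique alignments only), Picard against duplicate reads and DFilter, with its recommended settings and 100 bp bins, for calling. Their versions are not given in the sources used here. Each deposited line gives a chromosome with 2 positions in bp and no score, and every width is a multiple of 100 bp. The lists do not give the depth, read totals were left out here, and how far widths and numbers depend on it was not tested.

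Gene models were RefSeq GRCm38.p6 (mm10), 21000 protein-coding genes with a curated mRNA. Promoter sites came within 1 kb of any annotated TSS. The nearest gene was taken by distance from the middle of a site to 25999 curated TSS positions, up to 100 kb or inside the gene. Summits were not used, so 500 bp windows around the middle of each site were merged where they shared 125 bp or more. Motifs were matched exactly in the central 500 bp on both strands. Assignment, merging and matching were tested on simulated data. Python 3.11.15, numpy 2.4.6, pandas 2.3.3 and matplotlib 3.10.9 were used. With 1 list per stage no test was run, and shares over all genes, sites or regions stand beside each count.

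The members and lists were chosen with earlier results of these data known. All 10 genes were named. Other pathway genes were named when they had a promoter site in exactly 1 stage, or, up to 4 per list, when their promoter pattern was that of the most members. Regions to be named were the promoter regions and, per gene, the region listed in most stages and the widest sites. The other regions in the text were added after their values were seen. Alternatives were promoter reaches of 2 kb and 100 bp, curated TSSs alone, reaches of 50 and 20 kb, nearest gene body, all annotated TSSs, a merge overlap of 250 bp, merged intervals, wider sites, equal list lengths, a 200 bp motif window and the strict motif.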

Additional observations from a re-analysis of the deposited data

How the results depend on the processing

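Counts were called unchanged within 1.5 times the reported count. Of 92 recomputed summary counts, 63 stayed within it and 29 did not, most of them when sites were filtered on width. Of the recomputed counts per gene, 80 stayed within it and 30 did not. With sites no narrower than their list's median, Tcf7l2 and Wnt3 each had a promoter site in 2 stages. At equal list lengths Tcf7l2 had one in 3 stages and Wnt3 in 4. When only sites no narrower than their list's median were used, members with a promoter site were 5 in MES, 5 in HE, 2 in HP and 0 in MAC (44.2%, 53.5%, 38.9% and 41.4% of all genes), and assigned sites were 13, 22, 15, 4 and 11 from MES to MAC. There were then 42 merged regions, 17 in MES and/or HB only and 9 in MAC only, and 11 with a TCF/LEF match. With every list shortened to its widest sites, as many as HP has, 5 members had a promoter site in HE and 0 in MAC, and there were 24 sites in MES, 15 in HE and 11 in MAC, 53 regions, 6 in HE only, 9 in MAC only and 17 with a TCF/LEF match. Within 20 kb, 13 MAC sites were assigned, and within 50 kb, 11 regions were in MAC only. Merging the deposited intervals left 8 regions in HE only. Without Tcf7l2, chosen after seeing the data, 8 MAC sites and 4 MAC-only regions were left. A TCF/LEF match was in 15 regions in the central 200 bp and in 5 for CCTTTGAT. Each filter leaves a smaller number of sites, and causes of the changed counts were not tested. No paired analysis was possible because each stage has 1 list. The lists give no depth or score per site, and read totals were not used here, so a missing site is not evidence of closed chromatin.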
